A study of Mus musculus with 4 samples.

Results

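CTCF peaks at protein-coding promoters were taken from 3 lists of CTCF peaks, each made from 1 library of mouse gastruloids. A peak was a member when its summit lay within 1 kb of an annotated start of a protein-coding gene. Wild type had 2524 such peaks of 42897 (5.88%, exact 95% interval 5.66 to 6.11). InsCBS5-10 had 1579 of 30864 (5.12%, 4.87 to 5.37) and DelCBS7-10 had 1981 of 32797 (6.04%, 5.78 to 6.30). The comparison set was the distal peaks, which lay more than 10 kb from any annotated start and numbered 22318, 15567 and 16403 in the same order. The remaining peaks lay between these limits or near a gene without a listed start, and were set aside. At the edge of the window, the wild-type peak just inside lay 999 bp from the start of Gm3752 with a fold enrichment of 8.47, and the peak just outside lay 1002 bp from the start of Nfx1 with a fold enrichment of 11.

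Gastruloids are clumps of mouse embryonic stem cells that elongate in culture and mimic the trunk of the early embryo, and here they were pooled and fixed at 96 h. The control gastruloids were labelled wild-type. InsCBS5-10 has a HoxB genotype written as Del over Del(i9-13) with Ins(CBS5-10), and DelCBS7-10 carries all of these plus Del(CBS7-10). The edits lie on chromosome 11, which was left out, so every promoter described here is on a chromosome without an intended edit. RAD21, a subunit of the cohesin ring, was mapped in InsCBS5-10, and a further RAD21 list named as wild type was used as a list of the whole series. That list has no sample of its own, its origin is known only from its name, and it may come from other data than the 4 libraries with a sample, since the series is listed in part as a third-party reanalysis. Every wild-type RAD21 value here carries that limit. With 1 library per group, no test between genotypes was made. Intervals cover counting error only, and read depth is unknown.

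CTCF is a zinc-finger protein that binds a long DNA motif and halts cohesin as it extrudes chromatin loops. Many of its sites lie far from genes at domain borders. A smaller share lies just upstream of transcription starts, where CTCF is known to bring distal enhancers close to promoters, and cohesin is known to be loaded and to accumulate near active promoters as well. These peaks come from many cells, so the fraction of cells bound and the occupancy per cell cannot be told apart. Peak lists hold no transcript levels, so the tissue could not be checked against expression markers.

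Of the members whose summit fell within the printed promoter windows, 8 sequences are shown because they stand for the 3 groups that the results turn on. They come from RefSeq promoter windows of GRCm38, the assembly that mm10 names, which run from 250 bases before to 50 after each start. Each stretch has 52 bases, reads 5′ to 3′ toward its gene, and lies upstream of the start and outside every annotated gene. Capitals mark a match to a CTCF core motif, CCANNAGNNGGC or CCGCNNGGNGGC on either strand. The first and second sets show the strongest members with a match within 50 bp of the summit in a stretch that meets these conditions. Stronger members that failed a condition were passed over, among them Sh3glb1, Vmn2r29 and Synm in the first set and Agfg1, Med4 and Car7 in the second. The first set was called in all 3 CTCF lists and had RAD21 in both lists: Rapgef1 at chr2:29619666-29619717 (plus strand), Adprhl2 at chr4:126321728-126321779 (minus strand) and Rbm17 at chr2:11603337-11603388 (minus strand).
Rapgef1: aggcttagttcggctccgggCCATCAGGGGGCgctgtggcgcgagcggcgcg
Adprhl2: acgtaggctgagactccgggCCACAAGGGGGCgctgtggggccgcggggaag
Rbm17: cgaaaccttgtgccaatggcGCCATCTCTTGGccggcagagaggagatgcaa

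The second set was called in all 3 CTCF lists and had RAD21 in the wild-type list only: Nipsnap2 at chr5:129724943-129724994 (plus strand), Exosc8 at chr3:54735398-54735449 (minus strand) and Fam133b at chr5:3543746-3543797 (plus strand). The presence of a match in both sets was fixed by this choice of sequences, and the shares over all members are given further on.
Nipsnap2: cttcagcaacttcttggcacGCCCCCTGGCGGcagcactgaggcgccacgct
Exosc8: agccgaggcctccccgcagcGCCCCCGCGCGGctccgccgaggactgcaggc
Fam133b: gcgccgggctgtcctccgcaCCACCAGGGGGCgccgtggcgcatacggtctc

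The third set was called in wild type alone, and its members were shown whether or not they held a match: Cyren at chr6:34878156-34878207 (minus strand) and Ehd3 at chr17:73804655-73804706 (plus strand). These stretches are centred on the summit and hold no match to either form, which says only that those letters are not there. Cyren and Ehd3 are not the strongest of this class, as Kctd6, Cdc25a, Fam160b1 and Il3ra were stronger and are not shown.
Cyren: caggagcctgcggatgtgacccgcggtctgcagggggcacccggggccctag
Ehd3: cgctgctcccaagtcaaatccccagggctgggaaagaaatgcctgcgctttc

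Promoter summits were concentrated just upstream of the start. In wild type, 1660 of the 2524 members (65.8%, 63.9 to 67.6) had a summit upstream, and the median position was 80 bp before the start. The class from 250 to 1 bp upstream held 977 members (38.7%) and had the highest median fold enrichment, 8.71. The class from the start to 250 bp downstream held 316 members (12.5%) with a median fold enrichment of 5.25. These classes also differed in sharing, as 59.8% (56.6 to 62.9) of the first and 32.3% (27.2 to 37.7) of the second were called in all 3 CTCF lists. The median summit position was 120 bp upstream in InsCBS5-10 and 94 bp upstream in DelCBS7-10.

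**Figure D1:**
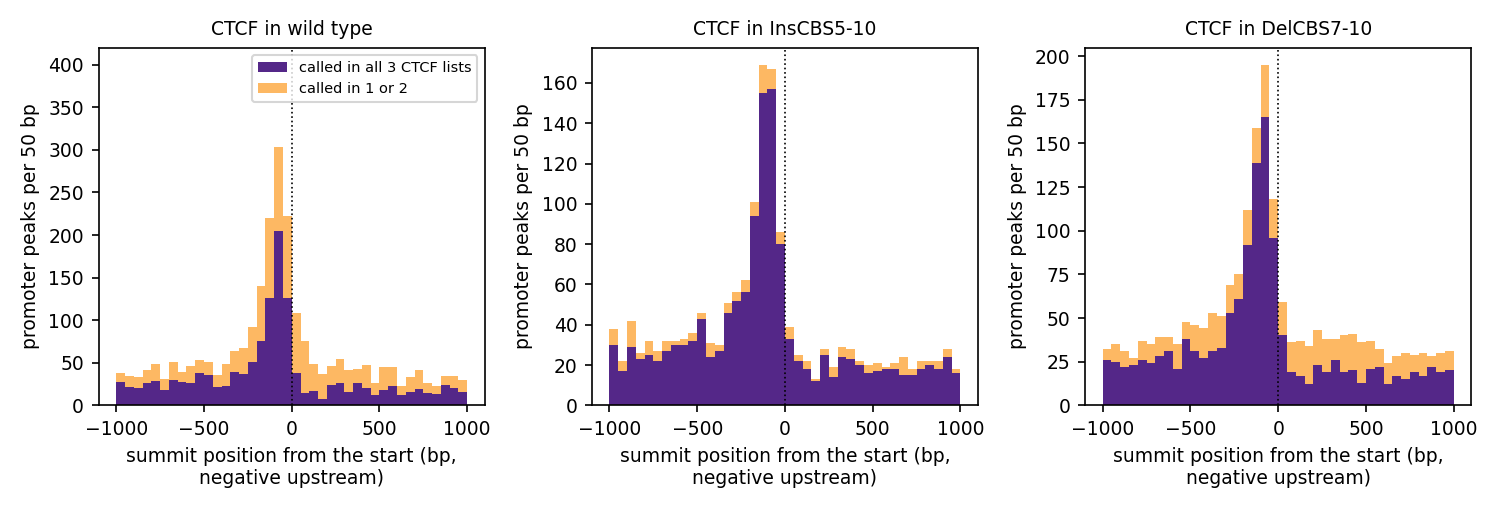
Number of promoter CTCF peaks per 50 bp of summit position relative to the nearest protein-coding start, in wild type, InsCBS5-10 and DelCBS7-10 (negative values upstream, dotted line at the start; vertical scales differ). Purple bars are peaks called in all 3 CTCF lists and orange bars, stacked on them, are peaks called in 1 or 2 lists. All 3 panels peak within 250 bp upstream of the start.

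Fold enrichment is the authors' ratio of peak signal to local background, and was used to rank peaks within a list only. In wild type the members were the stronger class, with a median of 6.93 (quartiles 4.27 and 10.7) against 5.18 (3.38 and 8.22) for distal peaks. The top decile of the wild-type list held 21.4% (19.8 to 23.0) of the members and 7.90% (7.55 to 8.26) of distal peaks. In each mutant list, members and distal peaks lay closer together. In InsCBS5-10 the medians were 5.94 and 5.52, with 13.4% (11.7 to 15.1) of members and 9.48% (9.03 to 9.95) of distal peaks in the top decile. In DelCBS7-10 the medians were 5.40 and 5.27, with 12.7% (11.2 to 14.2) and 9.43% (8.98 to 9.88). The difference in medians there, 0.130, was smaller than the half-width of its 95% interval, 0.147, so no gap in medians was shown at this setting. The lower quartile was 4.02 for members and 4.06 for distal peaks. The DelCBS7-10 difference depended on the setting. It exceeded its half-width at −log10 q of 5 or more (0.262, half-width 0.122), within 500 bp (0.246, 0.162) and with 1 start per gene (0.177, 0.129). It did not with chromosome X added (0.133, 0.150) or with distal peaks set from protein-coding starts only (0.112, 0.147).

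The strongest wild-type member lay 520 bp downstream of the start of Gm32584, a predicted gene, with fold enrichments of 29.1 (wild type), 23.3 (InsCBS5-10) and 21.3 (DelCBS7-10). RAD21 there had a fold enrichment of 24.6 in InsCBS5-10 and 18.4 in wild type. At Sh3glb1, which encodes the membrane-bending protein endophilin B, the values were 25.1, 16.7 and 15.4 for CTCF and 6.60 and 7.12 for RAD21. Synm, the gene of the intermediate filament protein synemin, had 21.6, 14.1 and 13.5 for CTCF and 5.67 and 9.19 for RAD21. These peaks were thus strong in every list, with RAD21 called in both. The strongest members also included Vmn2r29, a vomeronasal receptor gene, and Gm3667, a predicted gene, with wild-type folds of 22.4 and 21.3. Gm32584, Gm3667, Gm3752 and Vmn2r29 belong to classes of predicted or repeated genes with close copies, and their values are uncertain because no source used here gives the handling of reads with several matches.

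Other leading members lacked RAD21 in InsCBS5-10. Nipsnap2, which encodes a mitochondrial protein, had CTCF folds of 21.8 (wild type), 21.2 (InsCBS5-10) and 19.8 (DelCBS7-10), with RAD21 at 7.23 in wild type and no RAD21 call in InsCBS5-10. Med4, a subunit of the Mediator complex that links transcription factors to RNA polymerase II, had 20.7, 19.5 and 16.8, with RAD21 at 7.62 in wild type only. Exd1, of the piRNA pathway, had CTCF folds of 19, 12.7 and 17.7 and wild-type RAD21 at 4.99. Vps13d, a lipid transfer protein gene, had 16.8, 15.3 and 16.8 and wild-type RAD21 at 5.54. By contrast Rapgef1, which encodes an exchange factor for Rap GTPases, had 21.6, 18 and 15.2 and RAD21 in both lists, at 5.56 in InsCBS5-10 and 9.31 in wild type.

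RAD21 calls divided promoter from distal CTCF sites differently in the 2 RAD21 lists. Of the wild-type members, 618 of 2524 (24.5%, 22.8 to 26.2) overlapped a RAD21 peak of InsCBS5-10, against 39.6% (38.9 to 40.2) of distal peaks and 38.7% of all wild-type CTCF peaks. In the wild-type RAD21 list the order was the opposite, with 2133 members (84.5%, 83 to 85.9) against 65.5% (64.9 to 66.1) of distal peaks and 68.5% of all peaks. Within InsCBS5-10 itself, 546 of 1579 members (34.6%, 32.2 to 37.0) had RAD21 of the same genotype, against 51.0% (50.2 to 51.8) of distal peaks and 48.6% of all its CTCF peaks. The wild-type RAD21 list covered 88.7% (87.1 to 90.2) of InsCBS5-10 members, 77.8% of distal peaks and 78.2% of all peaks. DelCBS7-10 members had RAD21 of InsCBS5-10 in 28.7% (26.7 to 30.7) of cases, against 48.5% of distal peaks and 45.8% of all peaks. They had wild-type RAD21 in 82.3% (80.5 to 83.9), against 76.5% and 76.8%.

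The gap in the InsCBS5-10 RAD21 list was widest among strong CTCF peaks. In the top decile of the wild-type CTCF list, 246 of 540 members (45.6%, 41.3 to 49.9) and 91.4% (90.0 to 92.6) of distal peaks had a RAD21 call of InsCBS5-10. In the same decile, 98.5% (97.1 to 99.4) of members and 98.0% (97.2 to 98.6) of distal peaks had a call in the wild-type RAD21 list. Members were below distal peaks in 9 of 10 deciles for wild-type CTCF and in 10 of 10 for InsCBS5-10 CTCF and DelCBS7-10 CTCF. For the wild-type RAD21 list the difference lay among weak peaks. In the weakest decile, 48.5% (39.6 to 57.4) of members and 14.3% (13.0 to 15.8) of distal peaks had a call. With distal peaks weighted to the members' deciles, the wild-type RAD21 gap was 7.86 percentage points in place of 19, and with peaks of −log10 q of 5 or more it was 1.17.

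**Figure D2:**
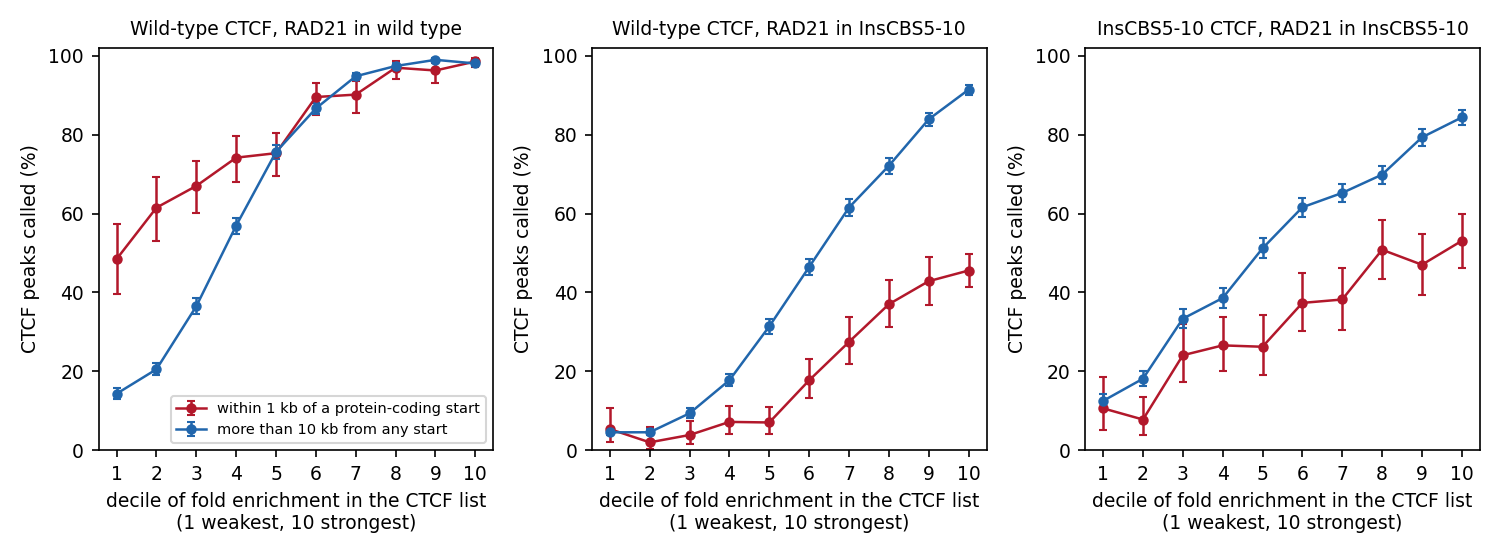
Share of CTCF peaks that overlapped a RAD21 peak (vertical axis, percent) by decile of CTCF fold enrichment in the list's own ranking (horizontal axis), for members (red) and distal peaks (blue); bars are exact 95% intervals. In the middle panel the top decile stands at 45.6% for members and 91.4% for distal peaks, while in the left panel it stands at 98.5% and 98.0%.

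RAD21 at promoters was also counted without reference to CTCF. The InsCBS5-10 RAD21 list had 642 of its 17620 peaks (3.64%, 3.37 to 3.93) at protein-coding promoters, and 96.9% (95.2 to 98.1) of these overlapped a CTCF peak of any list. The wild-type RAD21 list had 7707 of 53448 peaks (14.4%, 14.1 to 14.7) at promoters, and 28.8% (27.8 to 29.8) of these overlapped CTCF. Among the 12284 genes with no promoter CTCF peak in any list, 40.1% (39.2 to 41.0) had a wild-type RAD21 summit within 1 kb and 0.179% (0.112 to 0.271) had one of InsCBS5-10. Among the 2902 genes with a promoter CTCF peak in any list the shares were 86.5% (85.2 to 87.7) and 22.2% (20.7 to 23.7). The 2 RAD21 lists also differed in size and in peak width at promoters, with medians of 463 bp in wild type and 283 bp in InsCBS5-10. Genotype, experiment and depth cannot be told apart in this difference.

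Where both proteins were called, their summits lay close together. For wild-type members, the median distance to the RAD21 summit was 23 bp (quartiles 12 and 42) in the InsCBS5-10 list and 40 bp (17 and 101) in the wild-type list. The corresponding distal medians were 19 bp and 25 bp. RAD21 at members also ranked lower within its own list. The median percentile rank in the InsCBS5-10 RAD21 list was 45.6 for members and 54.0 for distal peaks, and in the wild-type list it was 59.2 and 74.5.

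Among the 1380 wild-type members called in all 3 CTCF lists, 520 (37.7%, 35.1 to 40.3) had RAD21 in both lists, 764 (55.4%, 52.7 to 58.0) in wild type only, 3 in InsCBS5-10 only and 93 (6.74%, 5.47 to 8.19) in neither. For distal peaks called in all 3 lists the first share was 60.0% (59.1 to 60.9) and the second 29.2% (28.4 to 30.0). The members with RAD21 in both lists had a median CTCF fold of 11.1, and those with RAD21 in wild type only had 9.67. The 93 members with neither were weaker, with a median of 5.61.

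The highest RAD21 folds of InsCBS5-10 at such members, after Gm32584, were at Ccdc110 (15.3), Faap20 (15.2), Pop5 (14.5) and Tafa2 (14.3). Faap20 encodes a protein of the Fanconi anaemia DNA repair pathway, and its CTCF folds were 14.4 (wild type), 9.95 (InsCBS5-10) and 7.95 (DelCBS7-10). Pop5, a subunit of RNase P, had 15.1, 14.3 and 9.04. Tafa2, which encodes a secreted protein, had CTCF folds of only 7.93, 4.41 and 6.05, so a high RAD21 fold was not confined to the strongest CTCF peaks.

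The 5 strongest members called in all 3 CTCF lists with RAD21 in neither list follow. Psmd6, a subunit of the proteasome lid, had CTCF folds of 15.5 (wild type), 8.46 (InsCBS5-10) and 9.27 (DelCBS7-10). Fam3c, which encodes a secreted protein, had 15.5, 6.01 and 6.87. At Tfeb, the gene of a transcription factor for lysosomal genes, the values were 14.1, 5.39 and 5.69. Csnk2a2, a catalytic subunit of casein kinase, had 13.8, 4.66 and 8.10, and Rcc2, a mitotic regulator, had 13.2, 9.96 and 7.44. All 5 summits lay between 157 bp upstream and 7 bp downstream of the start.

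A further group was picked after its values were seen: the strongest members called in all 3 lists with RAD21 in wild type and not in InsCBS5-10. Besides Nipsnap2 and Med4, it holds Agfg1, Hnrnpdl and Exosc8. Hnrnpdl, an RNA-binding protein gene, had CTCF folds of 21.0 (wild type), 6.62 (InsCBS5-10) and 6.22 (DelCBS7-10), and wild-type RAD21 at 3.27. Agfg1 had 21.2, 10.9 and 8.88 and wild-type RAD21 at 4.52. Exosc8, a subunit of the RNA exosome, had 20.7, 13.5 and 15.3 and wild-type RAD21 at 4.27.

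Sharing between genotypes varied with strength. Of the 2524 wild-type members, 1471 (58.3%, 56.3 to 60.2) were called in InsCBS5-10, against 60.5% (59.9 to 61.1) of distal peaks and 63% of all wild-type CTCF peaks. In DelCBS7-10, 1690 (67.0%, 65.1 to 68.8) were called, against 62.7% (62.1 to 63.4) of distal peaks and 65.8% of all. Because the members were stronger, the distal share was also weighted to the members' deciles, which gave 73.0% for InsCBS5-10 and 74.7% for DelCBS7-10. On that footing the members were called less often in both mutants. The unweighted difference for InsCBS5-10 changed sign, to 0.404 percentage points, when peaks near both ends of genes without a listed start and chromosome 18 were added. In single deciles, members were below distal peaks in 10 of 10 for InsCBS5-10 and in 9 of 10 for DelCBS7-10. The top decile was nearly complete, with 98.3% (96.9 to 99.2) and 98.7% (97.3 to 99.5) of members called. In the sixth decile the shares were 48.8% (42.4 to 55.2) of members and 84.5% (82.9 to 85.9) of distal peaks for InsCBS5-10, and 66.9% (60.7 to 72.8) and 86.1% (84.6 to 87.5) for DelCBS7-10.

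**Figure D3:**
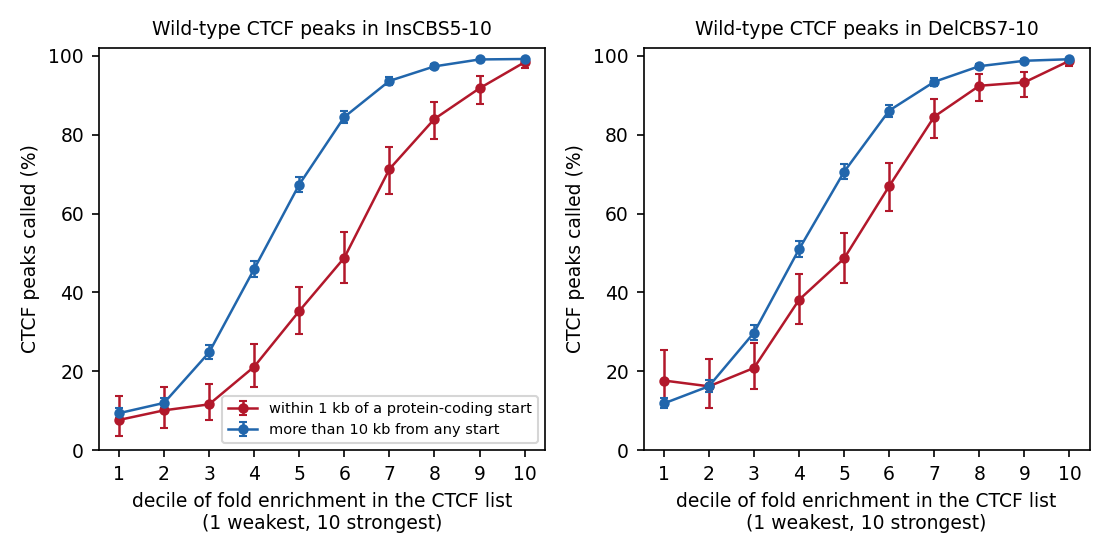
Share of wild-type CTCF peaks also called in InsCBS5-10 (left) and in DelCBS7-10 (right), in percent, by decile of wild-type fold enrichment, for members (red) and distal peaks (blue); bars are exact 95% intervals. Both classes approach full sharing in the top decile, and in the sixth decile of the left panel members stand at 48.8% and distal peaks at 84.5%.

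Most promoter peaks of the mutants were also called in wild type. Of InsCBS5-10 members, 93.5% (92.2 to 94.7) were called in wild type, against 86.7% of distal peaks and 87.4% of all its CTCF peaks. Their share in DelCBS7-10 was 89.6% (87.9 to 91.0), against 81.3% and 82.7%. Of DelCBS7-10 members, 85.6% (83.9 to 87.1) were called in wild type, against 85.2% of distal peaks and 85.8% of all. Their share in InsCBS5-10 was 71.3% (69.2 to 73.3), below the 77.2% of distal peaks and the 77.8% of all. The wild-type members fell into 1380 called in all 3 lists (54.7%, 52.7 to 56.6), 743 in wild type alone (29.4%, 27.7 to 31.3), 310 shared with DelCBS7-10 only (12.3%) and 91 shared with InsCBS5-10 only (3.61%). Their median folds were 10.0, 3.83, 5.31 and 5.33. For distal peaks the shares were 55.0%, 31.7%, 7.76% and 5.52% in the same order, so the first was close to that of the members.

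The 743 wild-type-alone members were weak as a class but often carried RAD21 in the wild-type list. RAD21 of wild type overlapped 536 of them (72.1%, 68.8 to 75.3), against 25.1% (24.1 to 26.1) of distal peaks called in wild type alone. RAD21 of InsCBS5-10 overlapped 39 of them (5.25%, 3.76 to 7.11), against 7.82% (7.21 to 8.47) of those distal peaks. The wild-type RAD21 share was below the 84.5% of all wild-type members and the 93.0% of members called in all 3 lists. It is thus no trait of the 743 in particular. The strongest of the 743 was at Kctd6, an adaptor of cullin ubiquitin ligases, with a CTCF fold of 16.6 and wild-type RAD21 at 4.04. Cdc25a, the phosphatase that drives entry into S phase, had a CTCF fold of 11.8 and wild-type RAD21 at 5.64. Fam160b1, Il3ra (a subunit of the interleukin receptor for a blood cell growth factor) and Cyren (a regulator of DNA end joining) had CTCF folds of 11.3, 11.1 and 10.9, with wild-type RAD21 at 4.25, 3.92 and 5.32. None of these 5 overlapped RAD21 of InsCBS5-10. Hoxd10 and Yars2, picked after their values were seen, were read by gene rather than by overlap. Each had a summit within 1 kb of a start in the wild-type CTCF list and in both RAD21 lists. Neither had a CTCF summit there in a mutant list. These summits need not belong to overlapping peaks. Hoxd10, a homeobox gene of posterior patterning, had wild-type CTCF at 6.23, with RAD21 at 13.4 in InsCBS5-10 and 8.17 in wild type. Yars2, a mitochondrial tRNA synthetase, had wild-type CTCF at 6.58 and RAD21 at 9.18 and 4.86.

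Members called in mutants but not in wild type were weak, as were the distal peaks of the same classes. InsCBS5-10 had 29 shared with DelCBS7-10 only (1.84%, against 2.61% of distal peaks), with a median fold of 3.76 against 3.71. RAD21 of InsCBS5-10 overlapped 0 of the 29 (exact upper limit 11.9%) and 5.90% of such distal peaks, a difference not detectable with so few members. Wild-type RAD21 overlapped 9 of the 29 (31.0%, 15.3 to 50.8). The strongest were at Tfap2d, a transcription factor gene, with 6.25 in InsCBS5-10 and 9.15 in DelCBS7-10, Tpm4, a tropomyosin, with 5.24 and 3.55, and Pax7, a neural and muscle progenitor factor, with 5.04 and 7.62. Pou5f1, a core pluripotency factor, had 4.82 and 4.41 and carried wild-type RAD21 at 4.29, and Pi4k2b, a lipid kinase, had 4.80 and 3.44. A further 73 members (4.62%, 3.64 to 5.78) were called in InsCBS5-10 alone, against 10.7% (10.2 to 11.2) of distal peaks, with median folds of 3.37 and 3.33. The members were led by Cyp27b1, which activates vitamin D, at 6.12, the kinase gene Dyrk1a at 5.49, the apoptosis initiator Casp8 at 4.80, Zswim5 at 4.59, and Dusp6, a phosphatase of ERK signalling, at 4.38.

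DelCBS7-10 alone had 258 members (13.0%, 11.6 to 14.6), a share close to the 12.2% (11.7 to 12.7) of distal peaks, with a median fold of 3.48 in both classes. Their median width was 226 bp, and the 5 strongest were wider than that. Hoxd13, the most posterior HoxD gene, had a fold of 7.19 and a peak of 1120 bp with its summit 806 bp downstream of the start. Flt1, a receptor of vascular growth factor, had 7.13 and 1219 bp. Nkx2-1, a forebrain and foregut factor, had 6.29 and 1071 bp, and the chromatin protein gene Hmga2 had 6.29 and 1066 bp. Hoxd11 had 6.14 and 1086 bp. None of these 5 overlapped RAD21 in either list. Of all 258, wild-type RAD21 overlapped 94 (36.4%, 30.6 to 42.6) and RAD21 of InsCBS5-10 overlapped 1 (0.388%), against 18.2% and 2.50% of the 2004 distal peaks called in DelCBS7-10 alone.

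The members lay at 2553 of the 15186 protein-coding genes with a listed start in wild type, which is 16.8% of genes (16.2 to 17.4). InsCBS5-10 members lay at 1598 genes (10.5%) and DelCBS7-10 members at 2018 (13.3%), and 1411 genes (9.29%) had a member in all 3 lists. Gene groups were then read against these shares. In these groups a call means a summit of that list within 1 kb of any start of the gene. The CTCF and RAD21 folds of a gene can therefore belong to different peaks. The groups are small, and their intervals include 16.8% in wild type except for the zinc-finger and olfactory receptor genes, so the counts are a description. For RAD21 counts at group genes with a wild-type member, the background is all genes with a promoter CTCF peak in any list. Their shares were 86.5% for wild type and 22.2% for InsCBS5-10. That background also holds genes with a peak in a mutant list only, whereas these group counts do not. For counts with or without a CTCF peak, the background is all genes with a listed start. Of these, 7439 of 15186 had wild-type RAD21 within 1 kb of a start. Whether such group counts differ from it was not tested.

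Genes of basic cell machinery had promoter peaks in every genotype. RNA polymerase II subunits had a wild-type member at 4 of 9 genes, all 4 also called in both mutants. Polr2j had CTCF folds of 17.4 (wild type), 9.86 (InsCBS5-10) and 8.31 (DelCBS7-10), and Polr2h had 13.3, 4.68 and 7.37. Respiratory complex I had 10 of 32 genes, with 8 in all 3 lists and wild-type RAD21 at all 10. With or without a CTCF peak, 27 of the 32 genes had wild-type RAD21 within 1 kb of a start, against 7439 of all 15186 genes. In complex I, Ndufb10 had 15.9, 8.55 and 7.93, Ndufv1 had 15.9, 7.15 and 6.43, and Ndufc1 had 15.3, 10.1 and 9.35. Proteasome subunits had 7 of 26, with Psmc6 at 13.6, 8.85 and 8.22 beside Psmd6, and Psmc4 at 13.0, 7.67 and 6.92. Cytosolic ribosomal proteins had 12 of 55, led by Rpl5 at 19.6, 13.5 and 11.2. RAD21 in wild type was at all 12 and in InsCBS5-10 at 2, near the shares over all genes with a promoter CTCF peak. With or without a CTCF peak, 40 of the 55 genes had wild-type RAD21. Mediator had 6 of 18, of which Med4, Med20 and Med19 were in all 3 lists and none had RAD21 in InsCBS5-10. Aminoacyl-tRNA synthetases had 7 of 27, and Sars2, Mars1 and Aars2 led with wild-type folds of 12.5, 12.2 and 11.9. DNA replication genes had 7 of 30, led by Pold1 at 13.5 and Mcm5, a helicase subunit, at 11.5, both with RAD21 in both lists, followed by Rfc5 at 8.08.

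The genes of CTCF and cohesin themselves had promoter peaks at 5 of 16 in wild type. Pds5b, a cohesin regulator, had a wild-type fold of 17.0 and 4.27 in InsCBS5-10 and was not called in DelCBS7-10. Stag1, a cohesin subunit, had 15.6, 9.39 and 8.70, and Smc3, a core ring subunit, had 14.9, 9.58 and 8.20 with wild-type RAD21 at 10.4. Ctcf had 9.53, 4.43 and 5.43. All 5 carried wild-type RAD21 and 1 of them, Pds5b, carried RAD21 of InsCBS5-10, at 4.93. With so few genes this is not distinguishable from the 86.5% and 22.2% over all genes with a promoter peak. With or without a CTCF peak, 15 of the 16 genes had wild-type RAD21, against 7439 of all 15186 genes.

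The zinc-finger genes of the Zfp series, many of which encode repressors of transposons, had a wild-type member at 67 of 307 (21.8%, 17.3 to 26.9), with a median fold of 5.44. Fewer were called in InsCBS5-10 (29, 9.45%, 6.42 to 13.3) and DelCBS7-10 (48, 15.6%, 11.8 to 20.2), and 23 were in all 3 lists. These intervals include the shares of all genes, 10.5% in InsCBS5-10 and 13.3% in DelCBS7-10. Zfp638, Zfp341 and Zfp280b led with wild-type folds of 17.0, 15.3 and 13.9. Olfactory receptor genes had 15 of 862 (1.74%, 0.977 to 2.85), led by Olfr763, Olfr9 and Olfr1368 at 7.06, 6.33 and 6.12. Many genes of both groups have close copies, so these counts are uncertain.

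Hox and neural tube genes had more members in DelCBS7-10 than in wild type. Over all genes the shares were 13.3% in DelCBS7-10 and 16.8% in wild type. The other developmental lists had no higher total in DelCBS7-10. Single genes of those lists, Cdx2 (3.31), Foxc1 (4.11), Tal1 (5.62) and Pou5f1 (4.41), still had a DelCBS7-10 member and no wild-type one. Hox genes outside HoxB had a wild-type member at 3 of 21, an InsCBS5-10 member at 2 and a DelCBS7-10 member at 7. Hoxa5 had folds of 14.5 (wild type), 5.14 (InsCBS5-10) and 4.80 (DelCBS7-10), and Hoxa10 had 11.9, 8.00 and 8.57. The DelCBS7-10 members without a wild-type call were at Evx1, Hoxa11, Hoxd3, Hoxd11 and Hoxd13. Neural tube factors had 2 of 20 (wild type), 3 (InsCBS5-10) and 8 (DelCBS7-10). Pax2 had 15.7, 6.78 and 6.84, Olig2 had 6.77, 6.88 and 5.72, and the further 6 of DelCBS7-10 were Irx3, Isl1, Neurog1, Nkx6-1, Pax7 and Sox1. Whether these counts differ beyond chance was not tested, and 1 library stands behind each.

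Tailbud and paraxial mesoderm genes had 5 of 23 in wild type and 4 in each mutant. Aldh1a2, which makes retinoic acid, had 8.57, 4.23 and 5.56, and Mesp1, a mesoderm transcription factor, had 8.26, 8.15 and 9.39 without RAD21 in either list. Wnt5b had 7.12 in wild type and 3.94 in InsCBS5-10, with RAD21 at 9.28 in InsCBS5-10 and 9.17 in wild type. Endoderm and heart genes had 4 of 16 (wild type), 2 (InsCBS5-10) and 3 (DelCBS7-10), with Foxa1 at 6.68, Foxa3 at 6.33 and Tbx1 at 5.16. Pluripotency genes had 3 of 14 in wild type and 2 in each mutant, with Dnmt3a at 6.65, Nodal at 4.94 and Tfcp2l1 at 3.42, and Dnmt3a and Tfcp2l1 were called in wild type alone. Imprinted genes had 5 of 22. Mest had 10.4, 4.50 and 5.71 with RAD21 in both lists, Peg12 had 9.73, 9.89 and 9.35 with wild-type RAD21 only, and Gnas had 3.38 in wild type alone. Clustered protocadherin genes had no gene with a listed start here and were not analysed.

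**Figure D4:**
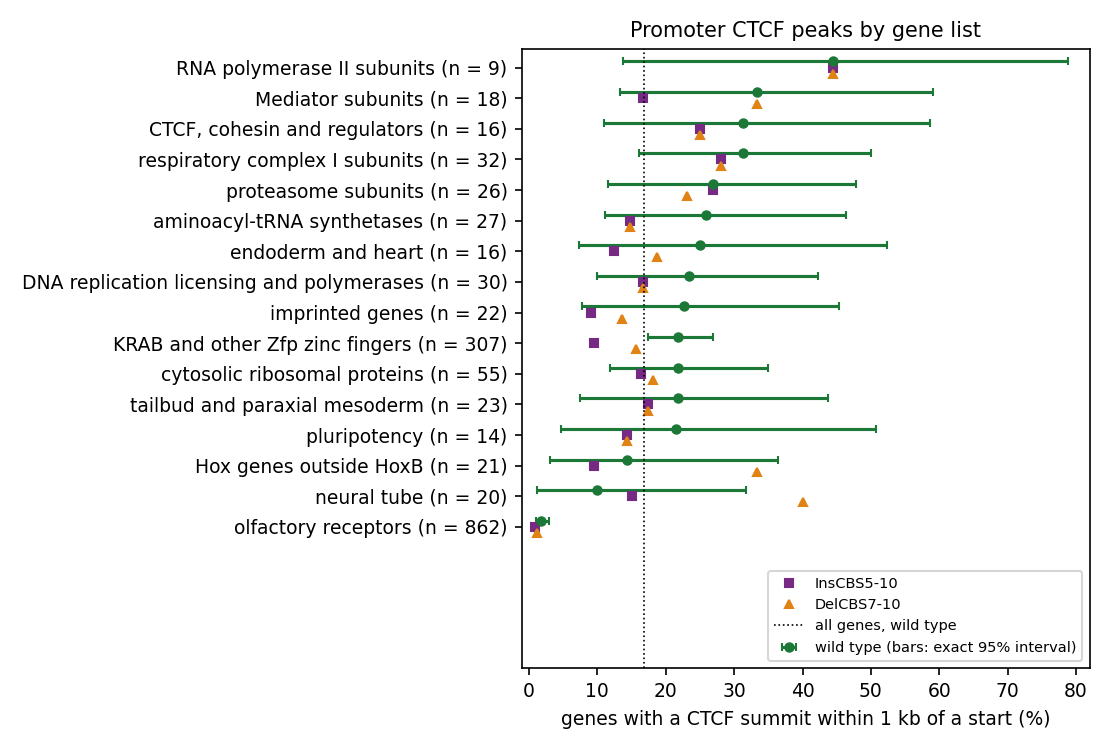
Share of the genes of each list with a CTCF summit within 1 kb of a start (horizontal axis, percent; number of genes in parentheses), in wild type (green, with exact 95% intervals), InsCBS5-10 (purple squares) and DelCBS7-10 (orange triangles). The dotted line marks 16.8%, the share of all genes in wild type; RNA polymerase II subunits stand highest, at 4 of 9 genes, and olfactory receptors lowest, at 15 of 862.

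Divergent promoters, where 2 genes start within 1 kb of each other on opposite strands and point apart, were set against other genes. In wild type, 256 of 1319 divergent genes (19.4%, 17.3 to 21.6) and 2297 of 13867 other genes (16.6%, 15.9 to 17.2) had a member. The shares were 10.2% and 10.6% in InsCBS5-10 and 15.5% and 13.1% in DelCBS7-10. By this definition a peak near divergent starts can count for both genes, and the intervals treat such genes as independent. The difference in shares is therefore a description only. A summit lay between the divergent starts in 41 wild-type members. The strongest was between Exosc8 and Alg5, a gene of protein glycosylation. Between Nae1, a subunit of the NEDD-activating enzyme, and Car7, a carbonic anhydrase, the folds were 18.4 (wild type), 8.85 (InsCBS5-10) and 10.5 (DelCBS7-10). Between the lipid transporter genes Abca17 and Abca3 they were 17.2, 10.3 and 10.7. Between Nop14, a ribosome biogenesis factor, and Grk4, a receptor kinase, they were 15.0, 8.72 and 7.30, and between Vezt, a cell junction protein, and Fgd6 they were 14.6, 5.76 and 4.09. All 5 had RAD21 in wild type, at folds between 4.27 and 6.73, and none had a RAD21 call in InsCBS5-10. These 5 lay in the top decile of wild-type CTCF, where 98.5% and 45.6% of members had such calls. RAD21 was not counted over all 41, so no trait of divergent promoters is shown.

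The sequence of the promoter windows was not used to choose the members. Of all 18524 windows of 300 bases, 3.98% held a match to CCANNAGNNGGC or CCGCNNGGNGGC on either strand, and windows with both forms were counted once. Windows with no CTCF summit within 1 kb in any list held a match in 2.65% (2.40 to 2.92) of 15258. Among the 1086 windows with a wild-type member's summit inside, 241 (22.2%, 19.8 to 24.8) held one, with CCANNAGNNGGC in 145 and CCGCNNGGNGGC in 99. The share was 29.3% (25.8 to 33.1) of 624 for InsCBS5-10 and 25.9% (22.7 to 29.3) of 718 for DelCBS7-10. A match describes the letters and does not show a bound site.

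Motif matches differed by strength and by sharing. The share was 35.0% (29.9 to 40.3) for the strongest decile of wild-type members and 14.3% (10.7 to 18.6) for the weakest 5 deciles. It was 29.3% (25.7 to 33.0) for members called in all 3 lists and 13.0% (9.56 to 17.1) for those in wild type alone. Among members called in all 3 lists, it was 31.6% (25.6 to 38.0) with RAD21 in both lists and 28.0% (23.4 to 32.9) with RAD21 in wild type only, and these intervals overlap. The 241 matches lay at a median of 19.5 bp from the summit, and 209 (86.7%, 81.8 to 90.7) lay within 50 bp. The motif read in the direction of the gene in 149 and against it in 92 (61.8% in the gene's direction, 55.4 to 68.0). Rapgef1, Adprhl2 and Fam133b above show the first orientation, and Rbm17, Nipsnap2 and Exosc8 the second. At Adprhl2, an ADP-ribose hydrolase gene, the CTCF folds were 20.2 (wild type), 15.6 (InsCBS5-10) and 13.5 (DelCBS7-10). Rbm17, a splicing factor gene, had 19.4, 15.2 and 15.0.

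**Figure D5:**
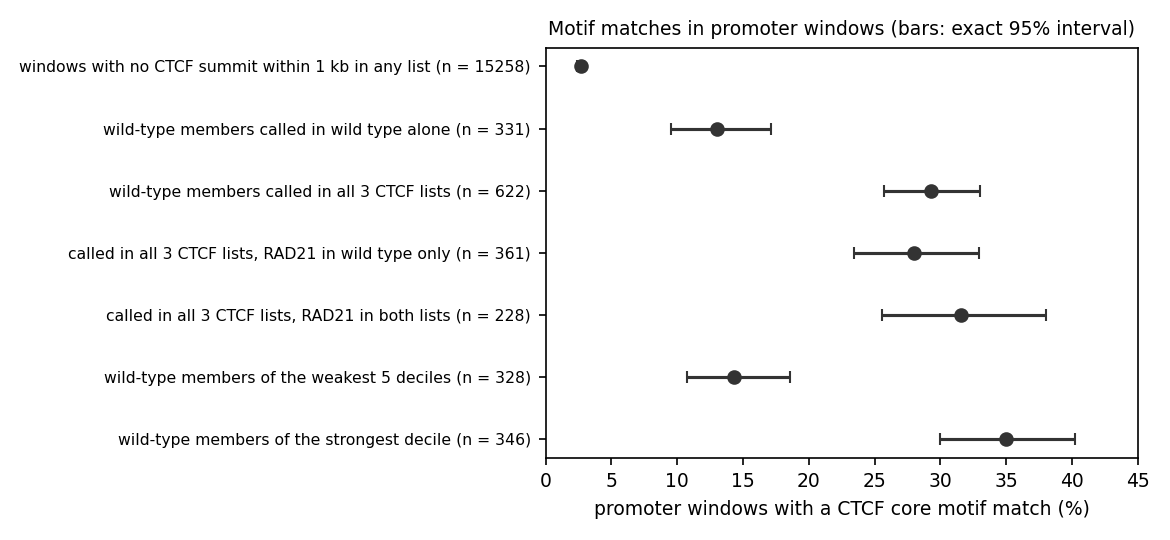
Share of promoter windows with a match to either CTCF core motif (horizontal axis, percent) for windows grouped by CTCF sharing, RAD21 calls and wild-type strength (number of windows in parentheses); bars are exact 95% intervals. Windows with no CTCF summit stand at 2.65%, wild-type-alone members at 13.0% and the strongest decile at 35.0%.

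The windows with members were also rich in GC and CpG. The median GC content was 62.3% (quartiles 56.7 and 68.0) with a wild-type member's summit and 55.3% (47.3 and 64.0) in windows with no CTCF summit nearby. The median ratio of observed to expected CpG was 0.764 and 0.505. Members called in wild type alone had the higher GC, with a median of 64.7% against 61.3% for those called in all 3 lists. Base composition thus moved with the calls, and its part in sharing and in RAD21 calls was not tested.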

How the data were processed

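CTCF and RAD21 were mapped by ChIPmentation, which adds sequencing adapters with a transposase on the antibody beads. The deposited files are narrowPeak lists, 1 per library. Per the submitters' processing notes, cutadapt 4.1, MACS2 2.2.7.1 and the build mm10 were used. The name of the wild-type RAD21 list joins mm10 with HoxB edits and names no chromosome. Its reads may thus have been mapped to a build with an edited chromosome 11, which the name does not state outright. No source used here gives the aligner, read filters, control or options. In these deposited lists, fold enrichment is a ratio of signal to local background, and the authors' −log10 q values are at least 1.30 in each list. Both were used only to rank or filter peaks within a list.

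Rows with equal intervals were merged to the summit of highest −log10 q. Peaks on 17 chromosomes were kept (1 to 19 without 11 and 18). Starts came from RefSeq GRCm38.p6 promoter windows and were listed for 15186 of 18545 protein-coding genes. Peaks within 1 kb of an end of a protein-coding gene without a listed start were set aside, unless they were members. A call in another list was an overlap of at least 1 bp, except in counts by gene. There each list was read on its own, by its strongest summit within 1 kb of any start of the gene. Exact Clopper-Pearson 95% intervals were computed for shares (Python 3.11.15, SciPy 1.17.1), which cover counting error only. Scripts were tested on simulated data.

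Named genes were the 5 strongest members by fold in each class described, the 3 leading genes of each gene list, and the peaks next to the 1 kb limit. Other genes were named after their values were seen. Members and gene lists were chosen with earlier results of these data known. Alternatives were a stricter −log10 q, a 500 bp window, 1 start per gene, other distal sets, summit distance in place of overlap, and chromosome X.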

Additional observations from a re-analysis of the deposited data

How the results depend on the processing

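With 1 library per group, depth unknown and no replicates, only counting error could be set beside these values. No paired analysis was possible because each group has 1 library and all carry the same replicate number. Differences below are members minus distal peaks, in percentage points or in median fold. Of 85 recomputed values, 47 stayed within the 95% interval of the reported value, 35 moved beyond it and 3 changed direction. With all lists limited to a −log10 q of at least 5, the promoter share was 6.73% in wild type and 5.47% in InsCBS5-10, genes with a wild-type member were 14.0%, and the fold differences were 1.09 in wild type and 0.20 in InsCBS5-10. Wild-type peaks then differed by -12.4 points in InsCBS5-10 calls, -8.66 in DelCBS7-10 calls (reversed from 4.21), -25.7 in RAD21 of InsCBS5-10 and 1.17 in RAD21 of wild type. InsCBS5-10 peaks differed by 2.11 in wild-type calls and -24.5 in RAD21 of InsCBS5-10. Weighting distal peaks to the members' deciles gave, in the same order, -14.7, -7.72 (reversed), -27.7, 7.86, 3.55 and -20.6 points. Counting summits within 200 bp of each other in place of overlaps gave 10.4 points for wild-type RAD21.

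A window of 500 bp gave promoter shares of 4.13%, 3.38% and 4.04% in wild type, InsCBS5-10 and DelCBS7-10, genes at 12%, a wild-type fold difference of 2.09, and differences of -4.26 points (InsCBS5-10 calls), -17.5 (RAD21 of InsCBS5-10) and 22.2 (wild-type RAD21) for wild-type peaks and 8.69 (wild-type calls) for InsCBS5-10 peaks. Using 1 start per gene gave promoter shares of 5.31%, 4.69% and 5.46% and genes at 15.5%. An alternative chosen after seeing the data, which added peaks near both ends of genes without a listed start and included chromosome 18, gave promoter shares of 7.67%, 6.95% and 8.01%. Wild-type peaks then differed by 0.404 points in InsCBS5-10 calls (reversed from -2.22), 6.32 in DelCBS7-10 calls and -12.1 in RAD21 of InsCBS5-10, and InsCBS5-10 peaks by -13.9 in RAD21 of InsCBS5-10. Narrower windows and fewer starts hold fewer members by construction, and the cause of the other shifts was not tested. In all settings run, members had less RAD21 of InsCBS5-10 than distal peaks. A motif search of 100 bp around every summit was not run, since only promoter windows were used.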
